A study of Drosophila melanogaster with 10 samples.

Results

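Neuroblasts, the stem cells that make the neurons of the fly brain, were compared between wild-type pupae and wild-type late larvae of Drosophila melanogaster. The comparison used the 6 wild-type sequencing runs of the 10 in the series: 1 run of each of 2 larval replicates, and 2 technical runs of each of 2 pupal replicates, which were averaged. Of 14210 genes listed, the 6924 with a mean of at least 1 FPKM over the 4 replicates were compared. A gene present at 1 stage alone could pass this minimum. FPKM is the number of sequenced fragments of a gene scaled to the length of its transcript and to the mapped fragments of the run. The other 4 runs, from pupae with RNA interference against the Mediator subunit gene MED27, were not compared here. They entered the shared estimate of the spread and the requirement of an estimate in every run. They also entered the gene means behind the length correction below and the references of other scalings.

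Neuroblasts divide asymmetrically: each division renews the stem cell and gives a smaller daughter that goes on to make neurons or glia. They grow and divide rapidly in the larva, change the transcription factors they express with age, and at the start of metamorphosis meet a pulse of the steroid hormone ecdysone, after which they shrink and leave the cell cycle. In both groups inscuteable-Gal4, which is active in neuroblasts and their newest daughters, drove membrane-bound GFP (UAS-CD8::GFP). Both groups also carried the empty landing site VIE-260B of the RNA interference collection in place of a construct, so the wild type here is not a fly without transgenes. After 24 h of egg laying at 29 °C, larvae were taken at 5 days, late in the third instar, and pupae at 6 days, aged 0 to 2 h. Large cells with strong GFP were sorted from central brains, so cells of a smaller size or with little GFP were selected against in both groups. Nothing in the labels says that replicates came from separate animals beyond the word biological, and with n = 2 per group p-values measure only the spread between these samples.

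Changes are given as log2 fold changes of FPKM + 1, pupal over larval, with the standard error (SE) of limma, a linear model with a spread shared over genes. A gene is called here where its limma p-value, adjusted over all 6924 genes, was below 0.05. By this rule 1573 genes were higher in pupae (22.7% of those tested) and 1846 were lower (26.7%), with a median log2 fold change of -0.08 over all genes. Most changes were small: 312 of the higher and 80 of the lower genes changed at least 2-fold. Without 1 of the 4 replicates, the calls ranged from 985 to 1485 higher and from 937 to 1978 lower. The fewest calls came without pupal replicate 2 (985 and 937) and without larval replicate 2 (1157 and 1073).

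Transcript length moved with the stage across the whole transcriptome, and the gene groups below differ in length. The median log2 fold change rose from -0.45 for transcripts of up to 500 nt to 0.67 for those above 5000 nt. The trend also differed between replicates of a stage, with a slope per doubling of length of -0.112 and -0.192 in the larval libraries against 0.103 and 0.201 in the pupal ones. Gene counts and most named genes are therefore also given after length correction, in which a smooth trend over length was taken out of each library. In that setting 987 genes were higher (14.4%) and 1055 lower (15.4%), and 38 of the calls changed direction. A gene was called in the same direction both ways for 756 genes higher (10.9%) and 689 lower (9.95%). The run names show 1 flow cell for both larval libraries and another for all pupal runs, and the implied depth was 18410000 to 18670000 fragments per larval run and 29230000 to 29920000 per pupal run. Stage, flow cell and depth cannot be told apart.

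**Figure D1:**
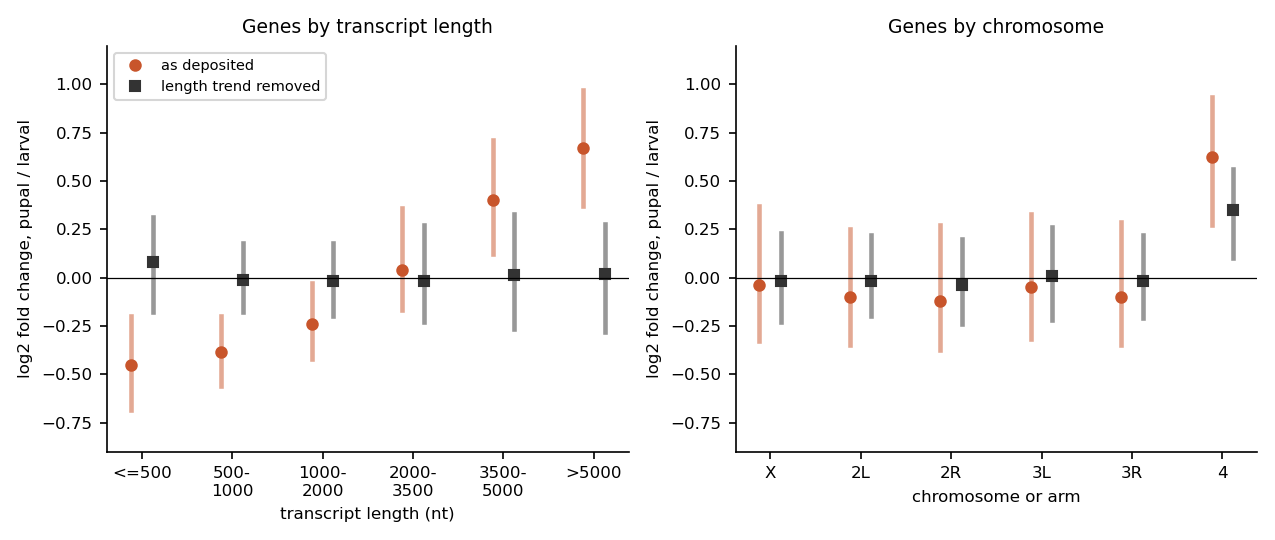
Median log2 fold change (pupal over larval; bars, quartiles over genes) by class of transcript length in nucleotides and by chromosome arm, for FPKM as deposited and after length correction. The median rose from -0.45 to 0.67 with length as deposited, and the genes of chromosome 4 lay at 0.62 as deposited and 0.35 after length correction.

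The sorted cells carried neuroblast markers at both stages, and neuron markers were higher in pupae. The marker genes dpn, ase, wor, mira and insc, which mark neuroblasts or set their division axis, lay between 47.7 FPKM (ase) and 954.8 FPKM (mira) in every library. Other markers of the list were low, among them l(1)sc at 0.874 to 1.38 FPKM and esg at 1.53 to 3.62 FPKM. The level of mira, the adaptor of the asymmetrically inherited factors, was 815.0 and 822.6 FPKM in larval and 954.8 and 930.8 FPKM in pupal neuroblasts. For comparison with the marker counts that follow, 22.7% of all genes were called higher and 26.7% lower as deposited. After length correction these shares were 14.4% and 15.4%. Of 19 neuroblast markers tested, 9 were called higher and 1 lower (median 0.52), and after length correction 7 and 1 (median 0.41). Of 13 neuron markers tested, of 19 matched, 11 were called higher (median 1.4) and 8 after length correction (median 1.07). Without larval replicate 2 the count as deposited was 7, and the median was 0.9 without pupal replicate 2 and 1.96 without pupal replicate 1. The 19 neuron markers summed to 53.3 and 48.7 FPKM in the larval libraries and to 130.0 and 275.9 FPKM in the pupal ones, so the pupal replicates differed from each other as well. The part of this in the results below was not tested. In sorted bulk RNA, fewer cells of a type and less RNA per cell cannot be told apart. Some defining markers of other tissues were below 1 FPKM: at most 0.138 FPKM for Hml and 0.908 for Pxn (haemocytes), 0.0517 for Mhc (muscle) and 0.834 for repo (glia). Lsp1alpha (fat body) was listed at 0 in all 4 replicates. Others lay higher, with Mef2 (muscle) at 1.79 to 2.51 FPKM, gcm (glia) at 0.695 to 1.75 FPKM and Lsp1gamma (fat body) at 1.71 to 2.2 FPKM. As whole lists, 15 glial markers summed to 257.0 and 226.9 FPKM in the larval libraries and to 274.3 and 278.6 FPKM in the pupal ones, most of it from nrv2 and Eaat1, and 2 of 7 tested were higher. The haemocyte list summed to 46.9 and 40.7 FPKM in larval and 34.5 and 33.9 FPKM in pupal libraries, mostly from crq, and 1 of 3 tested was lower. The fat body list summed to 42.8 and 46.6 FPKM in larval and 38.4 and 39.1 FPKM in pupal libraries, with 2 of 4 tested lower. The muscle list summed to 13.1 and 12.7 FPKM in larval and 21.6 and 22.1 FPKM in pupal libraries, mostly from how, with 2 of 3 tested higher. The tracheal and epidermal list summed to 70.2 and 59.2 FPKM in larval and 45.4 and 51.2 FPKM in pupal libraries, with 3 of 6 tested lower. The part of these lists in the results was not tested.

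**Figure D2:**
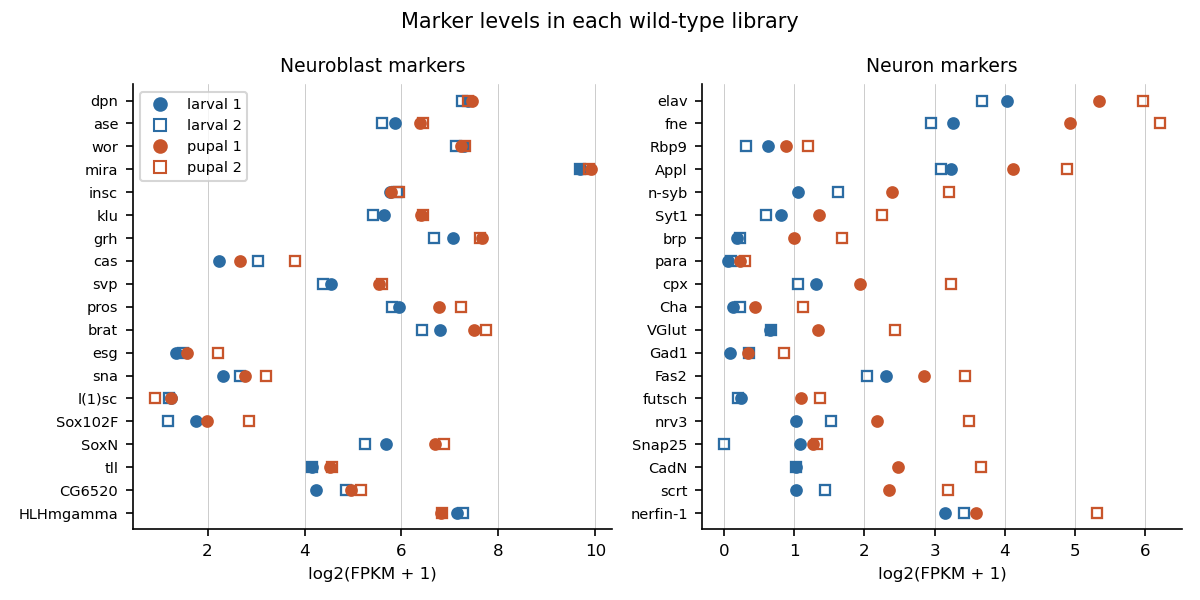
Level of 19 neuroblast markers and 19 neuron markers in each wild-type library, as log2(FPKM + 1); each point is 1 replicate, and pupal runs are averaged. Of the 19 neuroblast markers, 14 are higher and 1 is lower in pupae without overlap between stages, against 33.5% and 43.5% of all genes. The neuroblast markers wor and insc overlap. The neuron markers elav and fne are higher in both pupal libraries and highest in pupal replicate 2.

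A set of 10 genes was below 1 FPKM in both larval libraries and at 5 FPKM or more in both pupal ones, and no gene showed the opposite pattern. Of these 10, Eig71Ea, Eig71Eb, Eig71Ed and Eig71Eg belong to the late-puff cluster that the hormone ecdysone induces at 71E on chromosome 3L. PGRP-SB2, of the peptidoglycan recognition family of immune proteins, was at 0.0927 and 0 FPKM in larval and 36.5 and 13.5 FPKM in pupal neuroblasts. CG32762 and CG4151, neighbours on the X chromosome (deposited coordinates 5394298 to 5395219 and 5395865 to 5396608), were both listed at 0 in larvae. In pupae CG32762 was at 22.5 and 5.85 FPKM and CG4151 at 30.1 and 7.0 FPKM. CG43679 and CG42717 were at 37.5 and 12.2 and at 20.2 and 7.53 FPKM in pupae. All of these were higher in pupal replicate 1, by 2.68-fold (CG42717) to 4.3-fold (CG4151). CG10713 was the exception, at 6.69 and 5.71 FPKM in pupae against 0.247 and 0.37 in larvae. All 10 were called higher, and no fold is given for those listed at 0.

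Among genes already present in larvae, CG17124, Hsp67Bc and fne were among those with the largest rises. CG17124, a gene with no function in the files, was at 3.26 and 2.30 FPKM in larval and 25.2 and 30.2 FPKM in pupal neuroblasts. Its log2 fold change was 2.93 (SE 0.15, limma adjusted p = 0.000384), and 3.08 after length correction. Hsp67Bc, a small heat shock protein of the chaperones that hold unfolded proteins, was at 7.37 and 9.37 FPKM and then at 43.7 and 41 FPKM. The change was 2.22 (SE 0.12, limma adjusted p = 0.000384), and 2.54 after length correction. For both genes the stages lay far apart and the replicates of a stage were close. fne, an RNA-binding protein of neurons, rose by 2.46 (SE 0.36, limma adjusted p = 0.00245, and 1.81 after length correction), from 8.64 and 6.73 FPKM to 29.5 and 73.3 FPKM. Its pupal libraries differed from each other in the same order as the summed neuron markers.

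The largest falls were a cuticle protein and a methyltransferase. Cpr76Bc, of the chitin-binding cuticle protein family, was at 108.7 and 79.9 FPKM in larval and 3.96 and 8.14 FPKM in pupal neuroblasts. Its log2 fold change was -3.81 (SE 0.30, limma adjusted p = 0.00135), and -3.60 after length correction. CG9666, now named Mettl5 after the methyltransferase family that modifies ribosomal RNA, was at 13.4 and 25.5 FPKM and then at 0.995 and 1.05 FPKM. The change was -3.27 (SE 0.43, limma adjusted p = 0.00186), and -3.04 after length correction. The gene overlaps Max and CG42374 in the deposited coordinates, so fragments of its neighbours may enter its value. CG14933, which overlaps the phosphodiesterase gene Pde1c, fell from 18.6 and 17.1 FPKM to 1.93 and 2.26 FPKM (-2.26 after length correction). Genes with overlapping stages were left out when these were chosen, so every pupal value was below every larval one.

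Other falls were in proteins of the membrane and of detoxification. Sip1 (CG10939), a PDZ-domain scaffold of the NHERF type, was at 32.5 ± 6.25 FPKM in larval and 6.69 ± 1.31 FPKM in pupal neuroblasts (SD, n = 2, log2 fold change -2.12, SE 0.18, limma adjusted p = 0.00135). GluRIIA, a glutamate receptor subunit known from the neuromuscular junction, fell from 4.33 and 3.32 FPKM to 0.709 and 0.152 FPKM. CG13023 was the most abundant of the 12 genes with the largest falls, at 356.5 and 332.0 FPKM in larval and 132.6 and 95.6 FPKM in pupal neuroblasts (log2 fold change -1.60, SE 0.30, limma adjusted p = 0.00514). Cyp12c1, a cytochrome P450, fell from 8.55 and 5.81 FPKM to 1.71 and 1.93 FPKM. These falls also stood after length correction, between -1.33 for Cyp12c1 and -1.99 for GluRIIA.

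**Figure D3:**
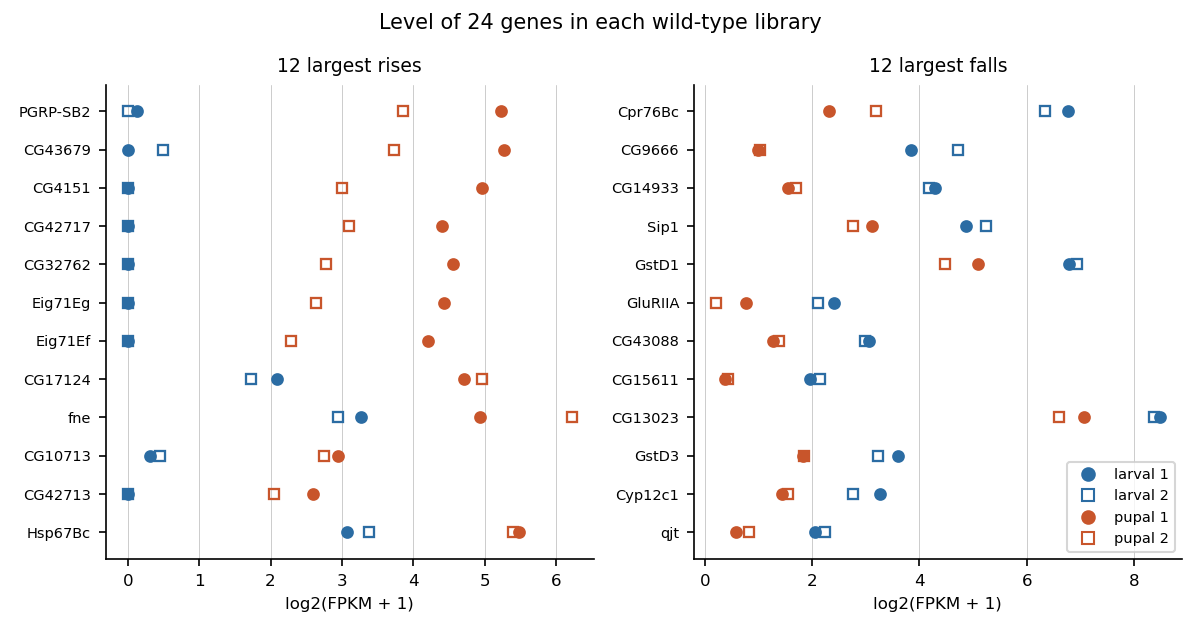
Level of the 12 genes with the largest rises and the 12 with the largest falls in each wild-type library, as log2(FPKM + 1). The 24 genes were chosen among those whose stages do not overlap, outside the ecdysone, oxidative phosphorylation and ribosomal protein lists. CG17124 and Hsp67Bc show close replicates, while PGRP-SB2 and CG4151 differ between the pupal libraries.

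Of the glutathione S-transferases, which join glutathione to toxins and oxidised products, 7 of 9 tested were called lower and none higher (the same counts at an unadjusted p below 0.05), with a median of -1.13. Their median length was 765 nt, and of all genes of 500 to 1000 nt 58.3% were called lower and 2.86% higher. All genes were called lower in 26.7% of cases as deposited and in 15.4% after length correction, when 3 of the 9 were lower and the median was -0.75. Without larval replicate 2, and again without pupal replicate 2, 4 were lower as deposited. GstD1, the most abundant, was at 109.5 and 122.1 FPKM in larval and 33.3 and 21.4 FPKM in pupal neuroblasts (log2 fold change -2.07, SE 0.19, limma adjusted p = 0.00135, and -1.72 after length correction). GstD3 fell from 11.2 and 8.32 FPKM to 2.54 and 2.58 FPKM, and GstD9 from 26.0 and 24.8 FPKM to 10.3 and 8.52 FPKM (-1.20 and -0.97 after length correction). GstD1 and GstD9 overlap in the deposited coordinates, so their shares of fragments are uncertain, and members of the family are close copies. GstE6 and Mgstl were not called (limma adjusted p = 0.851 and 0.729). Jafrac1, an abundant peroxiredoxin that removes hydrogen peroxide, fell from 897.1 and 981.4 FPKM to 569.5 and 519.5 FPKM (log2 fold change -0.79, SE 0.09, limma adjusted p = 0.00161, and -0.47 after length correction). Of all genes of 1000 to 2000 nt, 36.9% were called lower as deposited. Across the 19 genes of glutathione and redox metabolism, with a median length of 1211 nt, 10 were called lower and 1 higher, and 4 and 1 after length correction. The lower count was 5 without larval replicate 2 and 5 without pupal replicate 2.

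Homeodomain and other patterning transcription factors, which give neuroblasts and their neurons a regional identity, were higher in pupae. Of 50 tested, 37 were called higher, against 22.7% of all genes, and none lower at an adjusted or an unadjusted p below 0.05. The median was 0.75. After length correction 27 were higher, against 14.4% of all genes, and the median was 0.57. The fewest higher calls were 24, without pupal replicate 2, and 27, without larval replicate 2. The lowest members were unpg (-0.01) and gsb (-0.11), with limma adjusted p = 0.949 and 0.441.

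The largest change in this group was in ct, the homeodomain factor Cut, which rose by 1.52 (SE 0.13, limma adjusted p = 0.00135). Its level was 12.6 and 10.2 FPKM in larval and 33.5 and 35.2 FPKM in pupal neuroblasts, and the change was 0.61 after length correction. hth, whose protein carries its partner Extradenticle into the nucleus, was at 36.8 and 26.0 FPKM and then at 82.7 and 98.4 FPKM. It rose by 1.51 (SE 0.18, limma adjusted p = 0.00173), and by 1.11 after length correction. The partner gene exd rose less, from 67.5 and 54.9 FPKM to 87.4 and 93.4 FPKM (0.56, SE 0.11, limma adjusted p = 0.00548, and 0.55 after length correction). vvl, a POU-domain factor, rose from 19.1 and 13.1 FPKM to 47.9 and 44.5 FPKM, by 1.48 (SE 0.16, limma adjusted p = 0.0016), and by 1.06 after length correction. In all 4 genes the pupal values lay above the larval ones without overlap, which held for 33.5% of all genes.

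Among the 37 called, and named here after their values were seen, were oc and ems of the front of the brain, vnd and Dr of the lower and upper columns of the neuroectoderm, and en and run of segments. The T-box gene bi rose from 3.71 and 3.80 FPKM to 10.2 and 14.1 FPKM (1.45, SE 0.16, limma adjusted p = 0.00161, and 0.99 after length correction), and vnd from 2.25 and 2.56 FPKM to 5.17 and 5.36 FPKM (0.88, SE 0.14, limma adjusted p = 0.00333). After length correction oc rose by 0.80, ems by 0.77, vnd by 0.67, Dr by 0.81, en by 0.79 and run by 1.11. Each of these calls held without each replicate in turn. The trunk Hox genes Antp (14.8 and 18.8 FPKM in pupae) and Ubx (1.37 and 2.30 FPKM) were called as deposited, but not after length correction, and neither without larval replicate 2 nor without pupal replicate 2. Over the 50 genes, pupal replicate 2 was higher than replicate 1 by a median of 0.18 on the log2 scale, against 0.90 for the neuron markers and -0.01 for all genes.

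**Figure D4:**
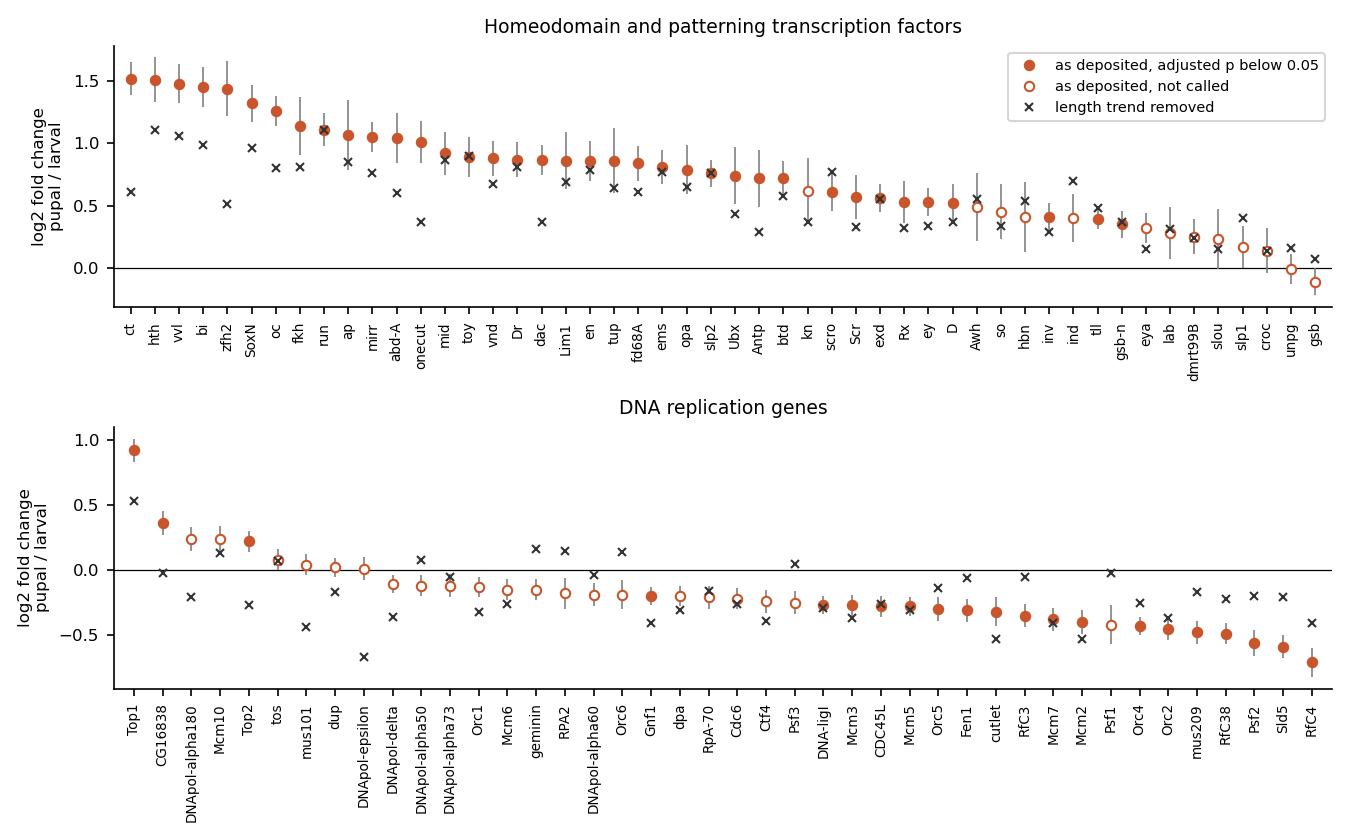
Log2 fold change (pupal over larval; bars, SE) of each tested patterning factor and each tested DNA replication gene, with filled points for limma adjusted p below 0.05 and crosses for the change after length correction. Among the factors 37 of 50 are called higher, and among the replication genes 18 of 42 are called lower and 3 higher.

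Of 26 basic helix-loop-helix factors tested, 14 were called higher and 1 lower (median 0.35), against 22.7% and 26.7% of all genes. After length correction 11 of 25 were higher and 2 lower (median 0.28), against 14.4% and 15.4%. The higher calls fell to 8 without pupal replicate 2 and to 9 without larval replicate 2. Members of the Myc network, which controls growth, were among them. dm, the fly Myc gene, was at 33.1 and 18.1 FPKM in larval and 72.1 and 67.5 FPKM in pupal neuroblasts (1.47, SE 0.27, limma adjusted p = 0.00499, and 1.21 after length correction). Mnt, the repressor that competes with Myc for their shared partner Max, was at 7.48 and 4.74 FPKM and then at 20.5 and 25.6 FPKM (1.78, SE 0.22, limma adjusted p = 0.00182, and 1.58 after length correction). The activator and its antagonist were both higher, with no overlap between stages, as 33.5% of all genes were. Max itself was at 41.4 and 37.3 FPKM and then at 52.1 and 49.3 FPKM (0.36, SE 0.09, limma adjusted p = 0.0157, and 0.70 after length correction), a call as deposited that was lost without larval replicate 2 and without pupal replicate 1. The gene Max overlaps CG9666 in the deposited coordinates, so its share of fragments is uncertain.

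Further members of the family rose as well. emc, which lacks a DNA-binding region and holds other members inactive, rose from 49.6 and 36.7 FPKM to 88.1 and 105.7 FPKM (1.16, SE 0.15, limma adjusted p = 0.00184, and 1.23 after length correction). crp rose from 49.1 and 37.1 FPKM to 92.0 and 100.2 FPKM (1.15, SE 0.14, limma adjusted p = 0.00173, and 0.87 after length correction). tgo, the shared partner of several sensors of oxygen and development, rose from 12.2 and 11.5 FPKM to 20.9 and 23.7 FPKM (0.86, SE 0.10, limma adjusted p = 0.00162, and 0.68 after length correction). The retinal and sensory factor ato was lower as deposited (limma adjusted p = 0.0301) and was not called after length correction, nor without larval replicate 2, pupal replicate 1 or pupal replicate 2.

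Of 41 regulators of splicing (SR proteins, hnRNPs and others), 27 were called higher in pupae and 3 lower (65.9% and 7.32%, against 22.7% and 26.7% of all genes), with a median of 0.49. After length correction 25 were higher and 1 lower (median 0.44), against 14.4% and 15.4% of all genes, and 22 were called higher both ways. With each replicate left out in turn the higher calls numbered 22 or more. The core spliceosome genes had a median length of 1261 nt, and of all genes of 1000 to 2000 nt 5.72% were called higher and 36.9% lower. Of 39 genes of the core spliceosome, 2 were higher and 15 lower (median -0.23), and 3 and 5 after length correction (median 0.00), with 0 genes called in the same direction both ways. The lower count as deposited was 9 without pupal replicate 2. Leaving out the regulators that are also neuron markers, elav and fne, left 25 of 39 higher and 3 lower, and 23 and 1 after length correction.

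The splicing regulators with the largest rises included factors known from neurons and muscle. mbl, the muscleblind factor, was at 18 and 12.4 FPKM in larval and 45.7 and 48.8 FPKM in pupal neuroblasts (1.60, SE 0.17, limma adjusted p = 0.00159, and 1.02 after length correction). A2bp1, the fly Rbfox gene, was at 14.7 and 11.8 FPKM and then at 31.5 and 48.8 FPKM (1.51, SE 0.21, limma adjusted p = 0.0023, and 1.03 after length correction). bru-3, of the Bruno family, was at 0.691 and 0.664 FPKM and then at 3.10 and 8.14 FPKM (1.87, SE 0.34, limma adjusted p = 0.00496, and 1.54 after length correction). In A2bp1 and bru-3, as in the neuron markers, pupal replicate 2 was the highest library, while in mbl the pupal libraries were close.

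Abundant hnRNPs of general use, which coat nascent RNA in most cells, also rose, and here the replicates were close. sqd rose from 214.4 and 182.5 FPKM to 411.6 and 415.3 FPKM (1.06, SE 0.09, limma adjusted p = 0.00135, and 0.92 after length correction). Hrb87F rose from 180.2 and 171.4 FPKM to 296.7 and 303.1 FPKM (0.77, SE 0.08, limma adjusted p = 0.00157, and 0.88 after length correction). glo rose from 148.7 and 152.4 FPKM to 233.2 and 227.6 FPKM (0.61, SE 0.07, limma adjusted p = 0.00161, and 0.66 after length correction). heph, the polypyrimidine tract-binding protein, and Hrb27C rose by 1.07 and 0.99 as deposited and by 0.79 and 0.64 after length correction. The SR protein SC35 and the small nuclear protein snf were called lower as deposited and were not called after length correction.

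In the Notch pathway, which separates the neuroblast from its daughter, 10 of 27 genes were called higher and 5 lower (against 22.7% and 26.7% of all genes). After length correction 9 were higher and 3 lower, against 14.4% and 15.4% of all genes, and without pupal replicate 2 the lower count as deposited was 3. The ligand gene Dl rose from 22.3 and 16 FPKM to 42.9 and 48.7 FPKM (1.23, SE 0.16, limma adjusted p = 0.00184, and 0.80 after length correction). The receptor gene N had a change of 0.90 as deposited and of 0.03 after length correction (limma adjusted p = 0.826), so its call rested on the length setting. kuz, the protease that cleaves the receptor, mam, the coactivator, and numb, the inhibitor inherited by the daughter, rose by 0.67, 0.97 and 0.40 after length correction. The target gene E(spl), now named E(spl)m8-HLH, fell from 48.6 and 50.1 FPKM to 28.4 and 25.4 FPKM (-0.85, SE 0.09, limma adjusted p = 0.00157, and -0.48 after length correction). The related target HLHmgamma was at 139.8 and 152.5 FPKM and then at 111.8 and 113.3 FPKM, a fall that was called only as deposited.

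The median length was 3754 nt in the EGF receptor and Ras pathway and 3669 nt in the Wnt pathway. In the EGF receptor and Ras pathway 13 of 22 genes were called higher and none lower (none at an unadjusted p below 0.05 either). The shares were 22.7% and 26.7% of all genes, and 55.8% and 2.9% of genes of 3500 to 5000 nt. After length correction 7 of the pathway were higher and 1 lower, against 14.4% and 15.4% of all genes. The higher count as deposited was 8 without larval replicate 2. pnt, the transcription factor at its end, rose from 3.6 and 3.39 FPKM to 7.90 and 7.93 FPKM (0.99, SE 0.12, limma adjusted p = 0.00182, and 0.76 after length correction). In the Wnt pathway 11 of 22 were higher and 2 lower, and 5 and 2 after length correction, and 7 were higher as deposited without pupal replicate 2. pan, the TCF factor that answers Wingless, rose from 6.20 and 4.79 FPKM to 14 and 18.9 FPKM (1.42, SE 0.18, limma adjusted p = 0.0018, and 0.94 after length correction), and por, which adds the lipid to Wnt ligands, fell from 28.6 and 33.2 FPKM to 17.3 and 18.5 FPKM (-0.75, SE 0.12, limma adjusted p = 0.00329, and -0.70 after length correction). The gene por overlaps CrebB-17A in the deposited coordinates.

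The Polycomb and Trithorax genes were mostly long, and most of their calls rested on the length setting. Among all genes 22.7% were called higher and 26.7% lower, and among genes of 3500 to 5000 nt 55.8% and 2.9%. After length correction the shares of all genes were 14.4% and 15.4%. Of 23 Polycomb group genes, with a median length of 4017 nt, 14 were called higher and 1 lower, and 5 and none after length correction. Of 27 genes of the Trithorax group and histone methylation, 17 were higher and 3 lower, and 8 and 3 after length correction. The 8 were among the 17, and the 3 lower genes were different ones, with 0 called lower both ways. Some were called higher both ways. nej, the histone acetyltransferase CBP, rose from 16.1 and 11.7 FPKM to 40.3 and 51.5 FPKM (1.66, SE 0.19, limma adjusted p = 0.00161, and 0.65 after length correction), and fs(1)h, a bromodomain protein, rose from 49.4 and 41.6 FPKM to 111.7 and 125.5 FPKM (1.37, SE 0.11, limma adjusted p = 0.00135, and 0.58 after length correction).

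The subunits of the elongation factor P-TEFb, the kinase that releases paused RNA polymerase II, moved in opposite directions. CycT, its cyclin, was at 16.9 and 14.6 FPKM in larval and 35.4 and 38 FPKM in pupal neuroblasts (1.17, SE 0.11, limma adjusted p = 0.00135, and 0.85 after length correction). Cdk9, its kinase, was at 37.7 and 46.0 FPKM and then at 26.2 and 26.5 FPKM (-0.64, SE 0.10, limma adjusted p = 0.0033, and -0.42 after length correction). The stages did not overlap for either gene, which held for 33.5% of all genes with higher and 43.5% with lower pupal values. CycH, the cyclin of the kinase in TFIIH, fell from 99.3 and 101.0 FPKM to 63.5 and 58.0 FPKM (-0.71, SE 0.08, limma adjusted p = 0.00157, and -0.40 after length correction). Among 44 general transcription factors, with a median length of 1536 nt, 6 were called higher and 16 lower (13.6% and 36.4%). The shares were 22.7% and 26.7% of all genes, and 5.72% and 36.9% of genes of 1000 to 2000 nt. After length correction 6 of the 44 were higher and 8 lower, against 14.4% and 15.4% of all genes. The lower count as deposited was 8 without pupal replicate 2, 9 without larval replicate 2 and 23 without larval replicate 1.

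Genes of axon guidance, which steer growing neurites, gave a count that differed much between the length settings. Among all genes 22.7% were called higher and 26.7% lower, and among those above 5000 nt 76.7% and 0.716%. After length correction the shares of all genes were 14.4% and 15.4%. Of 42 axon guidance genes tested, with a median length of 5463 nt, 31 were called higher and none lower (none at an unadjusted p below 0.05 either), with a median of 0.84. After length correction 9 were higher and 1 lower, with a median of 0.28, and without larval replicate 2 the count as deposited was 20. Among those called both ways, Fas1, an adhesion protein of axon bundles, rose from 4.71 and 5.04 FPKM to 12.2 and 17.4 FPKM (1.41, SE 0.22, limma adjusted p = 0.00276, and 1.23 after length correction). Sema-1a, a semaphorin, rose from 5.49 and 3.55 FPKM to 13 and 18.2 FPKM (1.59, SE 0.23, limma adjusted p = 0.0024, and 0.83 after length correction). sli, the midline repellent, rose by 0.86 as deposited and by 0.05 after length correction (limma adjusted p = 0.674). Of 26 genes of synaptic vesicles and release, 16 were higher and 2 lower, and 7 and 4 after length correction; without pupal replicate 2 only 5 were higher as deposited.

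Of 42 genes of DNA replication tested, 18 were called lower in pupae and 3 higher (median -0.22), and 20 and 1 after length correction (median -0.22), against 26.7% and 15.4% of all genes lower. The genes were only in part the same, with 11 called lower both ways. The lower calls as deposited numbered 8 without pupal replicate 2, 9 without larval replicate 2 and 20 without larval replicate 1, and with quantile normalization 13 were lower and 5 higher. Of the 6 subunits of the MCM helicase that unwinds DNA, Mcm2, Mcm3, Mcm5 and Mcm7 were called lower as deposited, and Mcm6 and dpa (the fly Mcm4) were lower as well after length correction. Mcm2 had the largest change, from 288.1 and 324.4 FPKM to 226.0 and 238.6 FPKM (-0.40, SE 0.09, limma adjusted p = 0.00957, and -0.53 after length correction). Its call held without each replicate in turn, and the calls of Mcm3, Mcm5 and Mcm7 did not. RfC4, of the clamp loader, fell from 196.6 and 191.7 FPKM to 133.7 and 104.9 FPKM (-0.71, SE 0.11, limma adjusted p = 0.00319, and -0.41 after length correction), and Orc2, of the origin recognition complex, from 57.2 and 66.5 FPKM to 46.4 and 43.3 FPKM (-0.45, SE 0.09, limma adjusted p = 0.00765, and -0.37 after length correction).

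Some replication genes did not follow. Top1, the topoisomerase that also relaxes transcribed DNA, rose from 31.3 and 28.7 FPKM to 55.0 and 60 FPKM (0.92, SE 0.09, limma adjusted p = 0.00135, and 0.53 after length correction). Top2 was called higher as deposited (0.22, limma adjusted p = 0.0457) and lower after length correction (-0.27), so its direction rested on the setting. DNApol-epsilon, the leading-strand polymerase, was at 34.6 and 38.2 FPKM and then at 34.4 and 38.9 FPKM. Its change was 0.01 as deposited (limma adjusted p = 0.957) and -0.67 after length correction (limma adjusted p = 0.00632). Of 67 kinetochore, spindle and cytokinesis genes 19 were higher and 23 lower as deposited (28.4% and 34.3%), near the shares of all genes (22.7% and 26.7%). After length correction 3 were higher and 21 lower, against 14.4% and 15.4% of all genes. Of the 67, 9 were called lower both ways, against 9.95% of all genes. Without larval replicate 2 the counts as deposited were 12 and 7, without pupal replicate 1 they were 12 and 15, and without pupal replicate 2 they were 11 and 7. Of 40 repair and checkpoint genes 7 were higher and 8 lower, shares below those of all genes. After length correction 0 were higher and 8 lower, against the same 14.4% and 15.4% of all genes.

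Of 24 enzymes of purine and pyrimidine synthesis, which supply the building blocks of DNA and RNA, 12 were called lower (against 26.7% of all genes) and none higher (14 and 1 at an unadjusted p below 0.05), with a median of -0.32. After length correction 10 of 23 were lower, against 15.4% of all genes, and 1 higher, with a median of -0.19, and without a replicate between 8 and 12 were lower. Enzymes on the route to thymidylate were among them. dUTPase, which supplies the substrate, fell from 1505 and 1668 FPKM to 960.5 and 949.8 FPKM (-0.73, SE 0.09, limma adjusted p = 0.0018, and -0.35 after length correction). Ts, thymidylate synthase, fell from 126.3 and 138.0 FPKM to 80.3 and 89.8 FPKM (-0.63, SE 0.10, limma adjusted p = 0.00331, and -0.38 after length correction). Every pupal value of both genes was below every larval value, which held for 43.5% of all genes. In pyrimidine synthesis, r, the enzyme of the opening steps, fell by 0.45 on the log2 scale as deposited and by 1.15 after length correction. Dhod, which follows it, fell from 95.6 and 97.4 FPKM to 54.3 and 56.2 FPKM (-0.79, SE 0.10, limma adjusted p = 0.00186, and -0.56 after length correction). Dhod overlaps CG8021 in the deposited coordinates.

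Secretory genes had a median length of 1999 nt (coats and Golgi), 1849 nt (endoplasmic reticulum) and 1851 nt (V-ATPase and lysosome). Of all genes of 1000 to 2000 nt, 36.9% were called lower and 5.72% higher. In the secretory pathway, 19 of 40 genes of the COPI and COPII coats and the Golgi were called lower and 8 higher (against 26.7% and 22.7% of all genes), with a median of -0.23. After length correction 15 were lower and 4 higher (median -0.20), against 15.4% and 14.4% of all genes. The lower calls as deposited numbered 9 without larval replicate 2, 11 without pupal replicate 2 and 12 without pupal replicate 1. The p24 cargo receptors eca, bai and CHOp24 were called lower both ways. eca fell from 105.5 and 119.4 FPKM to 69.1 and 61.0 FPKM (-0.78, SE 0.10, limma adjusted p = 0.00184, and -0.45 after length correction). alphaCop, a subunit of the COPI coat, fell from 62.4 and 69.1 FPKM to 50.6 and 51.2 FPKM (-0.36, SE 0.08, limma adjusted p = 0.00961, and -0.73 after length correction). Of 43 genes of the endoplasmic reticulum 17 were lower (39.5%) and 1 higher, and 13 and 1 after length correction. The lower count as deposited was 10 without pupal replicate 2 and 11 without larval replicate 2. SsRbeta, of the translocon, fell from 291.7 and 312.2 FPKM to 198.8 and 166.6 FPKM (-0.73, SE 0.10, limma adjusted p = 0.00199, and -0.39 after length correction). Of 28 genes of the proton pump V-ATPase and the lysosome 13 were lower (46.4%) and 2 higher, and 9 and 1 after length correction. The lower count as deposited was 6 without pupal replicate 2, 7 without larval replicate 2 and 8 without pupal replicate 1.

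Of 35 proteasome genes tested, with a median length of 1393 nt, 24 were called lower (68.6%) and none higher (28 and 0 at an unadjusted p below 0.05). The lower share was 26.7% among all genes and 36.9% among genes of 1000 to 2000 nt. After length correction 5 were lower, against 15.4% of all genes. The count as deposited was 11 without pupal replicate 2 and 14 without larval replicate 2. Among transporters, CD98hc, the heavy chain of amino acid exchangers, fell from 313.1 and 335.9 FPKM to 216.3 and 193.5 FPKM (-0.66, SE 0.09, limma adjusted p = 0.00184, and -0.63 after length correction). Its light-chain relative CG1607 fell from 106.0 and 106.9 FPKM to 80 and 80.3 FPKM (-0.40, SE 0.07, limma adjusted p = 0.00379, and -0.57 after length correction). Of 25 aminoacyl-tRNA synthetases 6 were lower and 1 higher as deposited, and 7 and 0 after length correction, against 26.7% and 15.4% of all genes lower. The lower count as deposited was 0 without pupal replicate 2 and 1 without larval replicate 2.

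**Figure D5:**
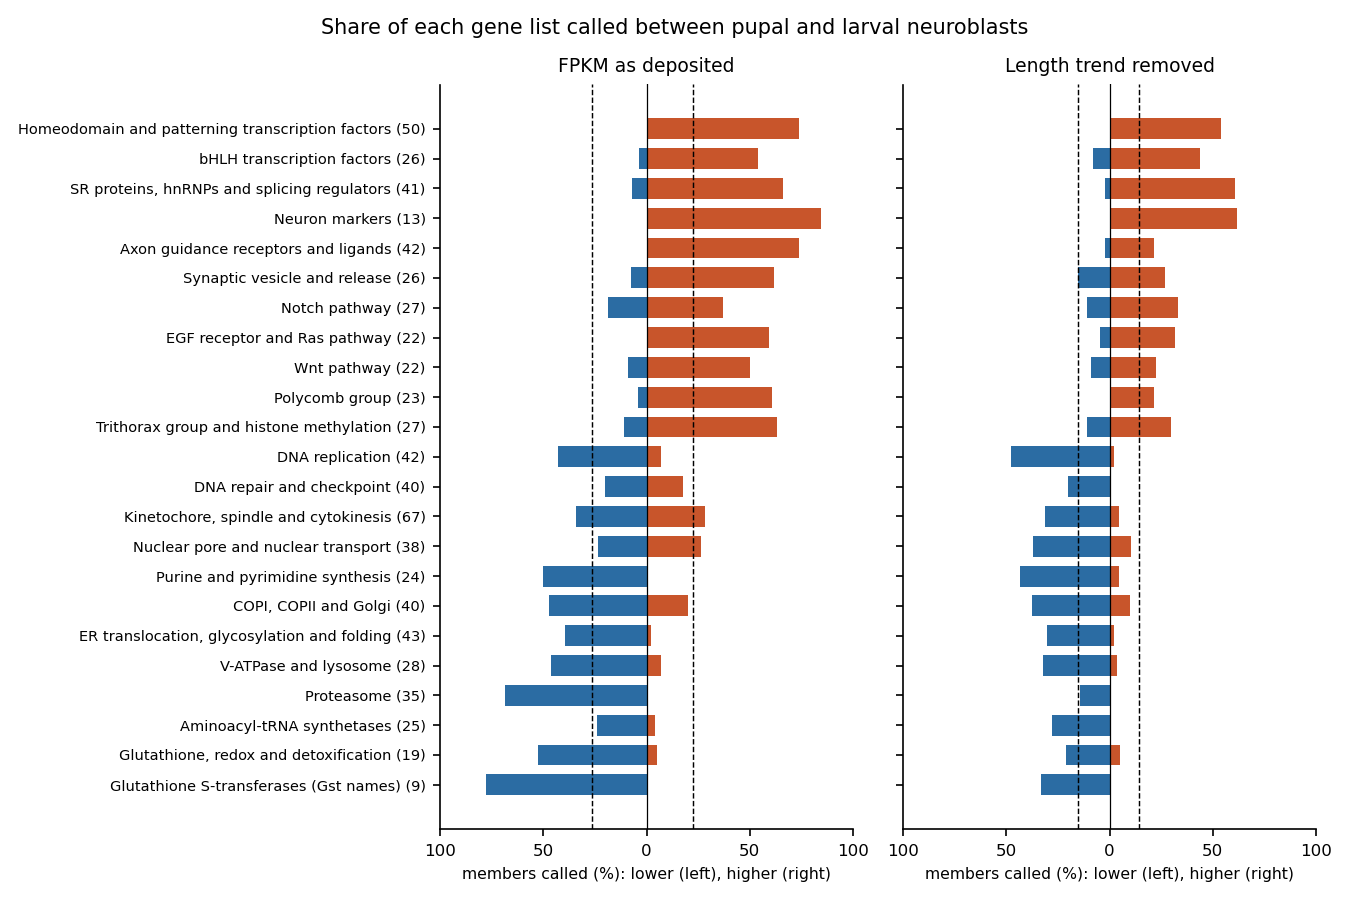
Share of the tested members of each gene group called lower (left) and higher (right) in pupae, for FPKM as deposited and after length correction; numbers in brackets are genes tested, and dashed lines mark the shares of all genes. Patterning factors and splicing regulators stay to the right and DNA replication to the left of the dashed lines in both panels, while the bars of axon guidance (31 to 9 higher) and the proteasome (24 to 5 lower) shorten.

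Of 62 genes tested on chromosome 4, the small chromosome rich in heterochromatin whose genes are bound by the protein Pof, 40 were called higher and 5 lower (64.5% and 8.06%, against 22.7% and 26.7% of all genes). The median was 0.62, against medians of -0.12 to -0.04 on the other arms. After length correction 15 were higher, against 14.4% of all genes, and 1 lower (median 0.35). Over these genes larval replicate 2 lay below replicate 1 by a median log2 difference of -0.33, against 0.05 over all genes. The higher calls as deposited numbered 18 without pupal replicate 2 and 26 without larval replicate 2. The median transcript length on chromosome 4 was 3477 nt. Its 31 genes of up to 3500 nt had a median change of 0.28, and the 5468 such genes elsewhere one of -0.18. After length correction both its shorter and its longer genes had a median of 0.35, against -0.02 and 0.00 elsewhere. toy, a Pax6 factor, rose from 14 and 9.83 FPKM to 21.4 and 23.9 FPKM (0.89, SE 0.16, limma adjusted p = 0.00469, and 0.90 after length correction). CaMKI, a calcium-dependent kinase, rose from 35.2 and 34.9 FPKM to 46.2 and 46.9 FPKM (0.40, SE 0.08, limma adjusted p = 0.00614, and 0.35 after length correction). Pof itself was at 17.8 and 15.6 FPKM and then at 15.6 and 15.2 FPKM (-0.11, SE 0.10, limma adjusted p = 0.383).

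The deposited comparison gives a further view of the same libraries. The authors' deposited table of pupal against larval neuroblasts lists 1958 genes, 1379 higher and 579 lower in pupae. Of the 1744 of them kept here, 1663 (95.4%) were called in the direction given in the authors' deposited table and 0 in the other. The genes shared with the authors' deposited table are 48.6% of the calls here. After length correction 967 were called in the direction of the authors' deposited table and 8 in the other. MED27, the target of the RNA interference in the third group, was at 31.7 and 38.3 FPKM in larval and 31.5 and 27.4 FPKM in pupal neuroblasts, and was not called (limma adjusted p = 0.215).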

How the data were processed

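RNA of sorted neuroblasts was measured in the groups described above. The authors deposited FPKM per gene and run as Cufflinks tables, per the file headers, and a table of a DESeq comparison whose log2 fold changes (of a ratio of base means, a signal of size-factor-scaled counts) and adjusted p-values are the authors'. The submitters' processing notes name Cufflinks 1.3.0, TopHat 1.4.1, BWA 0.6.1, DESeq 1.8.3 and HTSeq with no role. The genome build, the use of strand in counting and the runs behind that table were not given in the sources used here, so values of overlapping genes are uncertain. Coordinates are the deposited ones, counted from 1.

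Genes with an estimate in every run were kept (14119 of 14210; 53 others had a mean of 1 FPKM or more, among them Nipped-B and MEP-1, which failed in all wild-type pupal runs). Pupal runs (r = 0.999 or more within a replicate) were averaged, and log2(FPKM + 1), which understates changes of low genes, was fitted for 3 groups with limma 3.58.1 (R 4.3.3; intensity trend, two-sided, Benjamini-Hochberg). The length trend was a lowess curve (span 0.3) of each library's deviation from the gene mean of all 3 groups, over 6852 genes of known length. Tables used Python 3.11.15. The script was tested on simulated data. The depth was read from the confidence bounds of the FPKM, whose 92.4 to 93.3% of low values in the wild-type runs came out as whole fragments (within 0.02), and larval values carry more counting error.

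The genes and gene lists were chosen with earlier results of these data known, and no list was tested. Named genes were, first, the 12 largest rises and 12 largest falls called under both length settings and without each replicate. These also had to have stages without overlap and to lie outside the ecdysone, oxidative phosphorylation and ribosomal protein lists. Further named genes were up to 2 in each direction per list, genes on in 1 stage, and genes with replicates 4-fold apart. The rest were chosen after their values were seen. Alternatives were other pseudocounts, filters, scalings and runs, the length trend, a replicate block, and leaving out each replicate. Some genes that the rule for named genes or the lists hold are not reported here by name.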

Additional observations from a re-analysis of the deposited data

How the results depend on the processing

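The counts of 1573 genes higher and 1846 lower moved by less than 1.5 times under other pseudocounts, filters and scalings, with single technical runs, with the 4 wild-type replicates alone, without the intensity trend and without the gene of the largest FPKM (CR34335). Median ratio scaling gave 1688 higher and 1616 lower, so 51.1% of calls were higher against 49.1% without a filter on low values and 42.7% with a minimum of 5 FPKM. With the length trend removed 987 were higher and 1055 lower. Leaving out 1 replicate, which leaves a stage with 1 library assumed to vary like the other groups, gave 985 to 1485 higher and 937 to 1978 lower, and 1696 calls (49.6%) held in all 4 such fits. The labels do not say whether the replicate numbers shared by the groups pair the samples. Deviations of same-numbered libraries correlated at -0.057 between larvae and wild-type pupae, and at 0.051 after length correction. With 2 replicates per group these values cannot settle whether same-numbered samples were prepared together. With the replicate number as a block 1445 were higher and 1576 lower, and with the block and the length trend removed 862 and 850, of which 27 were called opposite to the fit as deposited; the cause was not tested. Of 176 genes named or listed with a fold change, 131 kept their call and direction in every setting run.

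Among the genes chosen by the naming rule, and MED27, the sign of 6 that were not called turned in some setting. Leaving out pupal replicates moved ImpL3 between -0.73 (limma adjusted p = 0.104) and 2.76, Scgdelta between -0.91 (0.0156, then called lower) and 1.2, and Arc1 between -0.36 (0.352) and 1.7. Leaving out larval replicates moved Sgs7 between -3.13 and 0.33 (0.756) and Sgs8 between -2.65 and 0.61 (0.49). MED27 was at 0.07 after length correction, with the block (limma adjusted p = 0.712) and without it (0.696). With 2 replicates a stage and fewer larval fragments, small differences between low genes were not detectable. A planned count of promoter motifs was not run, since no promoter sequences were used here.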

Other observations

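Single genes of further classes changed. Among cuticle genes, Ccp84Ab rose from 5.93 and 6.47 FPKM to 16.2 and 13.8 FPKM (1.15, SE 0.12, limma adjusted p = 0.00157), while Cpr66D fell from 10.4 and 10.6 FPKM to 3.98 and 4.27 FPKM (-1.16, SE 0.12, limma adjusted p = 0.00157). Of 122 cuticle genes matched by name, 4 were tested, and 2 were called higher and 2 lower, against 22.7% and 26.7% of all genes. The chitin-modifying genes verm and Gasp, known from the tracheae, fell by 1.33 and 1.23 on the log2 scale (limma adjusted p = 0.00476 and 0.0056), at 3.39 and 3.06 FPKM and at 1.62 and 0.939 FPKM in pupae, while the tracheal factor trh was at most 0.553 FPKM in any wild-type library. In serine synthesis, CG6287 rose from 1.22 and 1.13 FPKM to 3.01 and 3.29 FPKM (0.93, SE 0.21, limma adjusted p = 0.0102). pum, the translational repressor Pumilio, rose from 18.3 and 15.6 FPKM to 40.7 and 46.4 FPKM (1.31, SE 0.11, limma adjusted p = 0.00135, and 0.69 after length correction), and Rrp4, of the RNA-degrading exosome, fell from 153.2 and 169.0 FPKM to 103.5 and 72.4 FPKM (-0.89, SE 0.16, limma adjusted p = 0.00442).

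The long noncoding RNA CR43283, now named cherub, was at 3090 and 1397 FPKM in larval and 5754 and 6214 FPKM in pupal neuroblasts (1.52, SE 0.36, limma adjusted p = 0.0119), with the larval replicates far apart. Without pupal replicate 2 the limma adjusted p of CR43283 was 0.0566. The noncoding gene CR40469 was at 9545 and 11467 FPKM in larval and 6917 and 75.3 FPKM in pupal neuroblasts (limma adjusted p = 0.0974), so that 1 pupal library was far below the other wild-type ones.

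A few genes rested on 1 library. ImpL3, lactate dehydrogenase, was at 10.9 and 18.6 FPKM in larval and 102.3 and 8.23 FPKM in pupal neuroblasts, and was not called (limma adjusted p = 0.393). The salivary glue genes Sgs7 and Sgs8 were at 24.9 and 13.7 FPKM in larval replicate 2 and at no more than 2.16 FPKM in the other wild-type libraries. Arc1, a gene of the Arc family, was at 13.6 FPKM in pupal replicate 1 and at 2.50 to 3.56 FPKM in the other wild-type libraries. The pupal replicate that was high in ImpL3 and Arc1 was also the one in which Eig71Ec (23.6 and 4.30 FPKM) and the 10 genes below 1 FPKM in both larval libraries and at 5 FPKM or more in both pupal ones were higher.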
